A study of Mus musculus with 12 samples.

Results

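Ethanol is the solvent in which 4-hydroxytamoxifen (4-OHT) is given to induce CreERT2, so cells given ethanol serve as the vehicle control of such an experiment. The data described here compare how 2 kinds of mouse embryonic fibroblast responded to that vehicle: the ethanol response of Cre-positive cells minus the ethanol response of Cre-negative cells. A response is the log2 fold change of ethanol over untreated cells, and the difference is the Cre-positive response minus the Cre-negative one. The comparison used 8 of the 12 libraries and was made for all 17609 genes that passed the filter on low counts, of 47517 lines in the deposited table.

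The 4 groups were Cre-positive cells (labelled Cre +ve, with RosaCreERT2, and with Ssb1 given as Fl/F and Ssb2 as Fl/Fl) given ethanol for 5 days, the same cells untreated, Cre-negative cells (labelled Cre -ve, with both Ssb1 and Ssb2 given as Fl/Fl) given ethanol for 5 days, and the same cells untreated, with 2 libraries each. All came from C57BL/6 embryos at E13.5 and had been immortalised with a retrovirus carrying SV40 large T antigen, which binds p53 and the retinoblastoma proteins. Both genotypes carry floxed alleles of Ssb1 (gene symbol Nabp2) and Ssb2 (Nabp1), and none of these 8 libraries was given 4-OHT. Another 4 libraries, of both genotypes with 4-OHT, entered the filter on low counts, the scaling and the model's estimate of spread. They are otherwise left aside until the closing observations. The sources used here do not say how many embryos or clones each genotype comes from, which of a puromycin and a blasticidin vector each received, how or when the untreated cells were grown, or whether replicate libraries stem from separate cultures. Genotype, cell line and culture therefore cannot be told apart, nor can ethanol and other differences from the untreated cultures, and p-values measure only library-to-library spread, possibly technical.

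Several pathways in this text answer to the state of a culture. Type I interferon signals through a complex that holds STAT2 and IRF9 to switch on genes of antiviral defence. Sterol shortage releases SREBP2 from the endoplasmic reticulum to raise cholesterol synthesis and uptake, and a shortage of amino acids or misfolded protein raises the stress factor ATF4 and its targets. Replication-dependent histone mRNAs are made in S phase and end without a poly(A) tail, so they are seen in ribosome-depleted total RNA.

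The 8 libraries held 20201855 to 30280311 expected counts, and TMM factors of all 12 libraries ran from 0.972 to 1.02. The summed level of 10 fibroblast markers was 6529 to 7012 CPM with ethanol and 7073 to 7075 CPM untreated in Cre-positive cells, and 5245 to 5461 CPM with ethanol and 5336 to 5381 CPM untreated in Cre-negative cells (CPM, counts scaled to library size with TMM factors). Thy1 was at 0 in both Cre-negative groups. The 8 epithelial markers summed to at most 1.32 CPM in any of the 8 libraries, and those of blood cells to at most 5.88 CPM. The 10 markers of adipocytes and cartilage summed to 20.2 to 20.7 CPM with ethanol and 19.1 to 23.0 CPM untreated in Cre-positive cells, and to 112 to 113 CPM with ethanol and 122 to 130 CPM untreated in Cre-negative cells. Of 7 tested markers in that list, 1 had a higher and 3 a lower difference (1 lower in DESeq2), and of 8 tested fibroblast markers 1 had a higher and 2 a lower one (1 lower in DESeq2). Of 6 tested neural markers, Nes and Sox2 had higher differences (neither in DESeq2) and Tubb3 a lower one, and the listed 8 summed to 270 to 281 CPM with ethanol and 227 to 233 CPM untreated in Cre-positive cells, and 214 to 232 CPM with ethanol and 202 to 206 CPM untreated in Cre-negative cells. Xist, the RNA that silences an X chromosome in female cells, was at 0.368 and 0.805 CPM with ethanol and 0.393 and 0.688 CPM untreated in Cre-positive cells, and at 696 and 502 CPM with ethanol and 509 and 727 CPM untreated in Cre-negative cells. The Y-linked gene Uty was at 2.73 and 2.38 CPM with ethanol and 2.12 and 1.67 CPM untreated in Cre-positive cells, and at 0 in all 4 Cre-negative libraries. The genotypes thus differ in X- and Y-linked RNA as well. The part of that or of the marker levels in the results below was not tested. In bulk RNA, fewer cells of a type and less RNA per cell cannot be told apart.

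The targets of the floxed alleles did not pass the test of the difference. Nabp1, which codes for a single-stranded DNA-binding subunit of the SOSS complex (chromosome 1, 51465862 to 51478425, GRCm38), was at 14.5 and 15.9 CPM with ethanol against 16.1 and 15.2 CPM untreated in Cre-positive cells, and 26.5 and 24.5 CPM with ethanol against 27.5 and 25.2 CPM untreated in Cre-negative cells (log2 difference 0.00, SE 0.11, adjusted p = 1.00, edgeR's quasi-likelihood test with Benjamini-Hochberg adjustment, as for every adjusted p below). Nabp2, its paralogue (chromosome 10, 128401395 to 128411492), was at 19.8 and 22.6 CPM with ethanol against 22.5 and 20.7 CPM untreated in Cre-positive cells, and 26.2 and 26.4 CPM with ethanol against 27.1 and 26.99 CPM untreated in Cre-negative cells (log2 difference 0.01, SE 0.11, adjusted p = 0.971). Ethanol and untreated libraries overlapped for Nabp1 in both genotypes and for Nabp2 in Cre-positive cells, and the Cre-positive libraries lay below the Cre-negative ones for both genes. Exons of Nabp2 overlap Ankrd52 on the opposite strand.

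The ethanol responses of the genotypes differed widely but mostly by small amounts. The difference passed the test (adjusted p under 0.05) in 2871 genes, 16.3% of those tested: 1465 higher (8.32%) and 1406 lower (7.98%) in Cre-positive cells. The median size of a called difference was 0.37 on the log2 scale, 76.2% of the calls were under 1.5-fold, and 77 higher (0.437%) and 194 lower (1.1%) were both called and at least 2-fold. The median over all genes was -0.01. Ethanol against untreated called 2632 genes (14.9%) in Cre-positive cells, 1428 higher (8.11%) and 1204 lower (6.84%), and 4313 genes (24.5%) in Cre-negative cells, 2196 higher (12.5%) and 2117 lower (12%). Of these genes, 113 of the Cre-positive and 402 of the Cre-negative calls changed at least 2-fold. Without library 10 (Cre-negative ethanol) the difference called 1792 genes, and without library 2 (Cre-negative untreated) 1797. Over 12509 genes with an average log2 CPM of at least 1, the responses of the genotypes, which share no library, had a Pearson r of 0.24 and a Spearman rho of 0.15 across genes. Genes are not independent replicates, and this is a description.

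Most called genes had passed in a single genotype, more often the Cre-negative one. Among the genes with a lower difference, 810 had risen in Cre-negative cells without passing in Cre-positive cells, 250 had fallen in Cre-positive cells without passing in Cre-negative cells, 94 rose in both and 110 fell in Cre-positive and rose in Cre-negative cells. Among those with a higher difference, 710 had fallen in Cre-negative cells without passing in Cre-positive cells, 392 had risen in Cre-positive cells without passing in Cre-negative cells, 69 fell in both and 153 rose in Cre-positive and fell in Cre-negative cells. A further 138 lower and 127 higher genes passed in neither genotype taken alone.

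**Figure D1:**
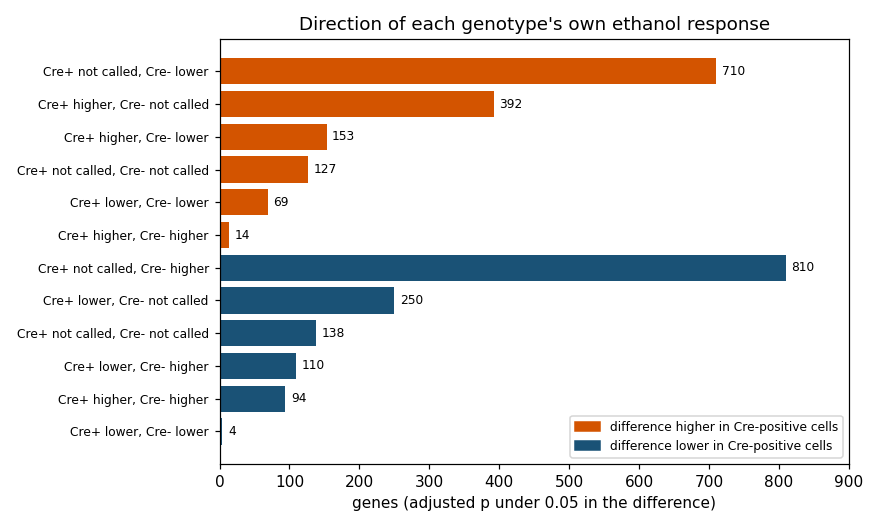
Number of genes called in the difference (x axis) by the direction of each genotype's own ethanol response (y axis), for higher differences (orange) and lower ones (blue). The longest bars are the 810 genes that rose and the 710 that fell in Cre-negative cells without passing in Cre-positive cells.

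**Figure D2:**
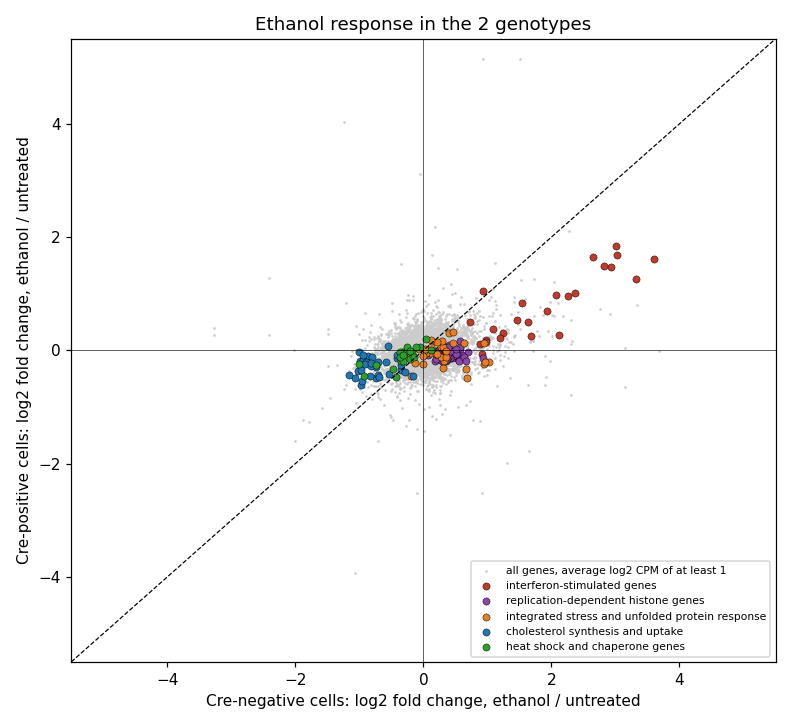
Log2 fold change of ethanol over untreated in Cre-positive cells (y axis) against Cre-negative cells (x axis) for 12509 genes (grey) and the members of 5 gene lists (colours) with an average log2 CPM of at least 1, with the line of equal responses dashed. Most interferon-stimulated and histone genes lie right of that line, and most cholesterol genes lie left of it.

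Interferon-stimulated genes rose with ethanol in both genotypes and rose less in Cre-positive cells. Of 37 members tested of 39 listed, 19 rose in Cre-positive cells (median log2 change 0.71) and 33 in Cre-negative cells (median 1.69). The difference was lower for 23 members and higher for 0 (62.2% called, beside 16.3% of all genes), with a median of -0.98 beside -0.01 over all genes. The count of higher ones was also 0 in edgeR at an unadjusted p under 0.05, and in DESeq2 and limma at an adjusted p under 0.05. The factors that carry the signal were among the 23: Irf9, the DNA-binding subunit of the complex formed with STAT2 (chromosome 14, 55603571 to 55610030), was at 34.8 and 28.7 CPM with ethanol against 22.4 and 22.4 CPM untreated in Cre-positive cells, and 58.8 and 58.5 CPM with ethanol against 19.7 and 18.2 CPM untreated in Cre-negative cells (log2 difference -1.13, SE 0.11, adjusted p = 3.01e-07). Ethanol libraries lay above untreated ones in both genotypes, with the wider gap in Cre-negative cells. Stat2 differed by -0.80 (SE 0.12) on the log2 scale.

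The RNA sensors and effectors followed. Ddx58, which codes for the viral RNA sensor RIG-I (chromosome 4, 40203773 to 40239828), was at 49.99 and 45.5 CPM with ethanol against 37.4 and 40.1 CPM untreated in Cre-positive cells, and 79.98 and 80.97 CPM with ethanol against 34.3 and 33.8 CPM untreated in Cre-negative cells (log2 difference -0.94, SE 0.076, adjusted p = 4.42e-08). Xaf1, whose product binds the apoptosis inhibitor XIAP, was at 2.47 and 2.55 CPM with ethanol against 0.905 and 1.23 CPM untreated in Cre-positive cells, and 6.75 and 7.83 CPM with ethanol against 0.573 and 0.8604 CPM untreated in Cre-negative cells (log2 difference -2.06, SE 0.33, adjusted p = 0.000229). For both genes the Cre-negative ethanol libraries stood highest. Usp18, a protease that removes ISG15 and restrains the interferon receptor, had a difference of -1.99 (SE 0.35) and rose in both genotypes. Ifit1, which binds foreign RNA, was at 13.4 and 11.1 CPM with ethanol against 6.49 and 5.996 CPM untreated in Cre-positive cells, and 21.3 and 25.6 CPM with ethanol against 5.16 and 4.73 CPM untreated in Cre-negative cells (log2 difference -1.29, SE 0.18, adjusted p = 3.47e-05). Dtx3l and Parp9, partners in a ubiquitin ligase complex, differed by -0.98 (SE 0.11) and -0.97 (SE 0.12). Dtx3l was at 14.3 and 13.8 CPM with ethanol against 14.6 and 14.8 CPM untreated in Cre-positive cells, and 23.5 and 24.9 CPM with ethanol against 13.1 and 12.5 CPM untreated in Cre-negative cells, so that its Cre-positive libraries were close together and its Cre-negative ethanol libraries stood above all others. The 14 members tested without a call included Ifit3 (log2 difference -0.22, adjusted p = 0.252), as well as Rsad2 and Cmpk2, which were near or at 0 in Cre-positive cells. Exons of Dtx3l and Parp9 overlap on opposite strands, and those of Irf9 overlap Rnf31 on the same strand. No source used here states the strand setting of the counting, so reads of such pairs cannot be told apart.

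The sequence around the start of these genes can be read beside their levels. A promoter here is the RefSeq window of 300 bases, from 250 before to 50 after the start, in GRCm38.p6. Of the 23 called members, 16 had a window, and 10 of these (62.5%) held the core of the interferon-stimulated response element, GAAANNGAA, on either strand, beside 9.76% of 27025 genes with a promoter in the table and 8.47% of the 10409 tested genes that have one. The windows of Ddx58 (chr4:40239776-40240075, minus strand, 1 match) and Ifit1 (chr19:34640639-34640938, plus strand, 3 matches, some overlapping) are shown 5′ to 3′ on the strand of the gene because they are a sensor and an effector with that core, in capitals, near the start. Ifit1 was chosen after its values were seen. The windows of Irf9, Xaf1 and Dtx3l held 0 matches, and the share in members not called was not counted. A match is a description and not a bound site.
Ddx58: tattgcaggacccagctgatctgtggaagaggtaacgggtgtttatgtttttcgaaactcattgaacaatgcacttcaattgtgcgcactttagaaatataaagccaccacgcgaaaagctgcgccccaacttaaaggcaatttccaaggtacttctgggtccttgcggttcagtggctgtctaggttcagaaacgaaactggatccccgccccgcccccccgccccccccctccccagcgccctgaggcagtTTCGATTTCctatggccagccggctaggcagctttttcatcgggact
Ifit1: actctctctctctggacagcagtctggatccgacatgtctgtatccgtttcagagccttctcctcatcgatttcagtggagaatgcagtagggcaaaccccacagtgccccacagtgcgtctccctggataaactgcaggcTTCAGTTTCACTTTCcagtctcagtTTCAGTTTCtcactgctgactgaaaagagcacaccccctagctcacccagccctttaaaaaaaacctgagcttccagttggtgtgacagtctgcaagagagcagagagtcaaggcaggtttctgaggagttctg

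Cholesterol synthesis genes moved the other way: they fell with ethanol in both genotypes and fell less in Cre-positive cells. All 33 listed members were tested. In Cre-positive cells 25 fell and 0 rose (median -0.27), and in Cre-negative cells 31 fell and 0 rose (median -0.81). The difference was higher for 26 and lower for 0 (78.8% called, beside 16.3% of all genes), with a median of 0.45. For each of these counts of 0, edgeR at an unadjusted p under 0.05, DESeq2 and limma also found 0. Hsd17b7, a ketoreductase of the late sterol pathway (chromosome 1, 169949535 to 169969241), was at 108 and 106 CPM with ethanol against 109 and 109.7 CPM untreated in Cre-positive cells, and 35.5 and 35.7 CPM with ethanol against 72.9 and 70.3 CPM untreated in Cre-negative cells (log2 difference 0.98, SE 0.065, adjusted p = 3.65e-09). Its Cre-positive libraries were close together, while the Cre-negative ethanol libraries stood well below the untreated ones.

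The feedback sensor of the pathway and other enzymes showed the same order. Insig1, which holds the SREBP machinery in the endoplasmic reticulum and is itself a target of it, was at 316 and 300.0 CPM with ethanol against 328 and 322 CPM untreated in Cre-positive cells, and 142 and 154 CPM with ethanol against 289 and 282 CPM untreated in Cre-negative cells (log2 difference 0.87, SE 0.063, adjusted p = 1.21e-08). Sqle, squalene epoxidase, was at 272 and 269 CPM with ethanol against 296 and 289.7 CPM untreated in Cre-positive cells, and 147 and 150.4 CPM with ethanol against 263 and 256 CPM untreated in Cre-negative cells (log2 difference 0.69, SE 0.051, adjusted p = 1.7e-08). Cre-negative ethanol libraries were the lowest for both genes. Cyp51, lanosterol demethylase, differed by 0.70 (SE 0.053), having fallen in both genotypes, and its exons overlap Akap9 on the opposite strand. Hmgcs1 (log2 difference 0.80) and Idi1 (0.79) had higher differences as well, and Srebf2, which codes for SREBP2, had the smaller one of 0.27 (SE 0.075). Ebp, Acly, Fads1, Fads2, Acaca and Tm7sf2 were among the members that did not pass.

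**Figure D3:**
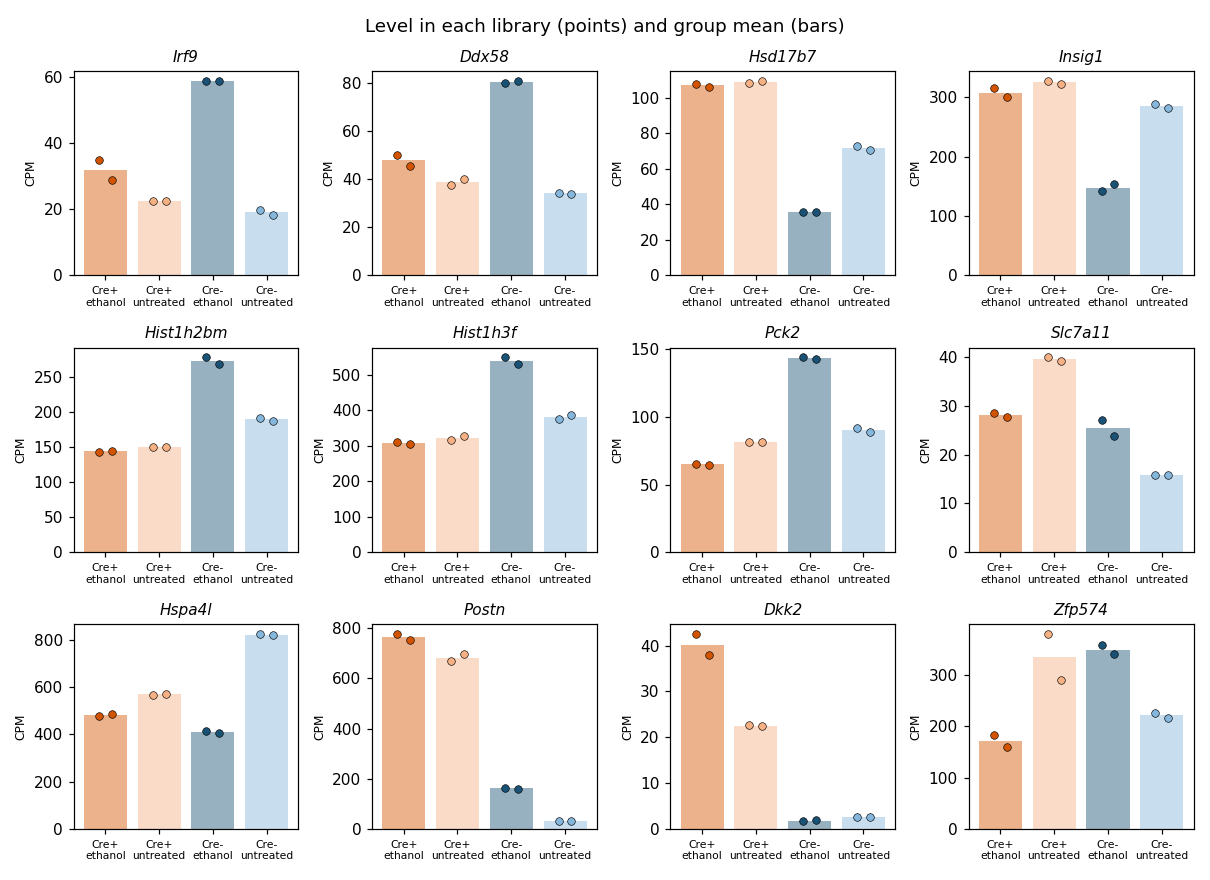
CPM of 12 genes (y axis) in each of the 8 libraries (points) and as group means (bars), with Cre-positive cells left of Cre-negative cells and ethanol left of untreated. In Irf9, Ddx58, Hsd17b7, Insig1 and the histone genes the Cre-negative pair is farther apart than the Cre-positive pair, whereas in Dkk2 the Cre-positive pair is the farther apart, and in Zfp574 both pairs are apart in opposite directions.

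Few genes of the integrated stress response rose with ethanol in Cre-positive cells, while most rose in Cre-negative cells. Of 35 members, 3 rose and 7 fell in Cre-positive cells (median -0.06), against 23 that rose and 2 that fell in Cre-negative cells (median 0.27). The difference was lower for 18 and higher for 0, with a median of -0.24 (1 was higher at an unadjusted p under 0.05, and 1 each in DESeq2 and limma). Of the 35, 51.4% were called, beside 16.3% of all genes. Pck2, the mitochondrial form of PEP carboxykinase (chromosome 14, 55540266 to 55551242), was at 65.2 and 64.5 CPM with ethanol against 81.7 and 81.5 CPM untreated in Cre-positive cells, and 144 and 142 CPM with ethanol against 91.8 and 88.9 CPM untreated in Cre-negative cells (log2 difference -0.998, SE 0.060, adjusted p = 1.03e-09). Its pairs moved in opposite directions without overlap. Slc7a11, the cystine importer, did likewise, at 28.6 and 27.7 CPM with ethanol against 40.00 and 39.3 CPM untreated in Cre-positive cells, and 27.2 and 23.8 CPM with ethanol against 15.8 and 15.8 CPM untreated in Cre-negative cells (log2 difference -1.18, SE 0.10, adjusted p = 5.31e-08).

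Other targets of ATF4 and its partner CHOP differed mainly through Cre-negative cells. Trib3, a pseudokinase that binds AKT and ATF4, was at 10.9 and 10.9 CPM with ethanol against 12.6 and 12.7 CPM untreated in Cre-positive cells, and 39.1 and 35.4 CPM with ethanol against 18.1 and 18.6 CPM untreated in Cre-negative cells (log2 difference -1.23, SE 0.12, adjusted p = 5.97e-07). Vldlr, a lipoprotein receptor, was at 16.7 and 15.7 CPM with ethanol against 19.1 and 18.1 CPM untreated in Cre-positive cells, and 63.8 and 64.7 CPM with ethanol against 30.8 and 34.6 CPM untreated in Cre-negative cells (log2 difference -1.18, SE 0.10, adjusted p = 1.36e-07). For both genes the Cre-negative ethanol libraries stood well above the untreated ones, and the Cre-positive ethanol libraries lay slightly below theirs. Ddit3, which codes for CHOP, differed by -0.81 (SE 0.10), Asns, asparagine synthetase, by -0.51 (SE 0.060), and Atf4 itself by -0.22 (SE 0.058). The chaperone gene Hspa5 of the unfolded protein branch had a difference of -0.01 (SE 0.052) with adjusted p = 0.919, and Dnajb9, Sel1l, Calr and Hsp90b1 of that branch did not pass either, whereas Herpud1 and Pdia4 had lower differences.

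The composite C/EBP-ATF core TGATGCAA, searched on both strands, was present in 5 of the 18 called members, all with a promoter window (27.8%), beside 1.03% of all promoter genes and 0.711% of the tested genes with a window. The windows of Slc7a11 (chr3:50443564-50443863, minus strand, 2 matches) and Vldlr (chr19:27216770-27217069, plus strand, 1 match) are shown because both are called members with that core, in capitals. The windows of Pck2, Trib3, Ddit3, Asns, Atf4 and Sesn2 held 0 matches. The share in members not called was not counted. RefSeq gives Vldlr 2 windows, and the other one, chr19:27216234-27216533, has 0 matches; a gene was counted where any of its windows held the core.
Slc7a11: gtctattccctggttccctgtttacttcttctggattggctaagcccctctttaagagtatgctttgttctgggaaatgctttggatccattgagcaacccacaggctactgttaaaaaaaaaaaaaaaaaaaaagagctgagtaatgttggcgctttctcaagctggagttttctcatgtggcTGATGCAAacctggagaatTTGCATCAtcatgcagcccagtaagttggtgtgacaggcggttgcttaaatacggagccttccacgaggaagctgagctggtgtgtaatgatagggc
Vldlr: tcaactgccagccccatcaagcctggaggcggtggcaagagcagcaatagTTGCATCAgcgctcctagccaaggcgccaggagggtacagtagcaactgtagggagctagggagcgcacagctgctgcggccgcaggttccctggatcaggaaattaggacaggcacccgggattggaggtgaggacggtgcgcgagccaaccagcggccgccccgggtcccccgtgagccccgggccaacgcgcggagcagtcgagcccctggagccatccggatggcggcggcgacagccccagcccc

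Targets of p53 were split, with more lower than higher differences. Of 30 tested members, 9 were lower and 1 was higher (33.3% called, beside 16.3% of all genes, median -0.23). With ethanol 5 rose and 5 fell in Cre-positive cells, against 16 that rose and 3 that fell in Cre-negative cells. Trp53inp1, a stress-induced partner of p53 (chromosome 4, 11156431 to 11174379), was at 12.5 and 11.7 CPM with ethanol against 10.5 and 11.8 CPM untreated in Cre-positive cells, and 41.6 and 42.9 CPM with ethanol against 17.01 and 15.1 CPM untreated in Cre-negative cells (log2 difference -1.28, SE 0.13, adjusted p = 1.47e-06). Ccng1, cyclin G1, was at 91.8 and 85.2 CPM with ethanol against 100.5 and 99.9 CPM untreated in Cre-positive cells, and 201 and 215 CPM with ethanol against 163 and 148 CPM untreated in Cre-negative cells (log2 difference -0.60, SE 0.070, adjusted p = 5.36e-06). The Cre-positive ethanol libraries were lower than untreated ones for Ccng1 and overlapped them for Trp53inp1, and the Cre-negative ethanol libraries were the highest for both genes. Sesn2, a sestrin that restrains mTORC1 and is also on the stress response list, differed by -1.18 (SE 0.14), and Phlda3, an AKT repressor, by -0.72 (SE 0.088). Cdkn1a, which codes for the cell cycle inhibitor p21, did not pass (log2 difference -0.73, adjusted p = 0.0747), nor did Mdm2 (-0.15, adjusted p = 0.128).

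Replication-dependent histone genes differed almost throughout. Of 61 tested members of 67, 0 rose and 6 fell with ethanol in Cre-positive cells (median -0.07), against 52 that rose and 0 that fell in Cre-negative cells (median 0.39). The difference was lower for 49 and higher for 0 (80.3% called, beside 16.3% of all genes, median -0.43). Of the counts of 0, the rise in Cre-positive cells had 1 member at an unadjusted p under 0.05 and the others had 0, and DESeq2 and limma gave 0 for all 3. Hist1h2bm, an H2B gene (chromosome 13, 21722044 to 21722567), was at 143 and 145 CPM with ethanol against 151 and 150.0 CPM untreated in Cre-positive cells, and 279 and 269 CPM with ethanol against 193 and 188 CPM untreated in Cre-negative cells (log2 difference -0.59, SE 0.054, adjusted p = 2.11e-07). Hist1h3f, an H3 gene, was at 311 and 306 CPM with ethanol against 317 and 329 CPM untreated in Cre-positive cells, and 549.6 and 532 CPM with ethanol against 375 and 386 CPM untreated in Cre-negative cells (log2 difference -0.58, SE 0.058, adjusted p = 9.57e-07). The Cre-negative ethanol libraries stood above all others for both genes.

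Differences were lower across histone types, including the linker histone gene Hist1h1a (log2 difference -0.73, SE 0.076, adjusted p = 1.41e-06) and the H4 gene Hist1h4c (-0.37, SE 0.056), and Hist1h2bh fell in Cre-positive while it rose in Cre-negative cells. Histone copies are nearly identical, and the counting could split reads between them. The main histone cluster lies on chromosome 13, where 45 of 53 listed histone genes were called lower. Of all 647 tested genes on that chromosome 14.1% were called lower, and 7.74% of the 594 without the list.

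Other S phase genes moved by less. Of 33 members, 8 had a lower difference and 0 a higher one (0 also at an unadjusted p under 0.05, in DESeq2 and in limma), with a median of -0.13. That is 24.2% called, beside 16.3% of all genes. Rfc3, a subunit of the clamp loader, was at 72.7 and 65.3 CPM with ethanol against 71.98 and 75.1 CPM untreated in Cre-positive cells, and 90.6 and 94.1 CPM with ethanol against 74.4 and 72.9 CPM untreated in Cre-negative cells (log2 difference -0.42, SE 0.069, adjusted p = 0.000281). Its Cre-negative ethanol libraries were the highest, and its Cre-positive pairs overlapped. Pold1, the catalytic subunit of polymerase delta, differed by -0.38 (SE 0.068), and Mcm7, of the replicative helicase, by -0.26 (SE 0.054), with exons that overlap Cops6 and Ap4m1 on the opposite strand. Slbp, which codes for the protein that binds the histone mRNA stem loop, did not pass (-0.14, adjusted p = 0.262). For 29 genes of G2 and mitosis the share called, 17.2%, was near the 16.3% of all genes. Of these genes 4 were lower, among them the kinase genes Aurkb (-0.33, SE 0.061) and Aurka (-0.29, SE 0.061) and the kinesin gene Kif2c (-0.29, SE 0.060), and 1 was higher. In Cre-positive cells 9 of the 29 rose with ethanol, and in Cre-negative cells 16 did.

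Heat shock and chaperone genes fell less with ethanol in Cre-positive cells. Of 22 tested members, 8 fell and 1 rose in Cre-positive cells (median -0.06), against 17 that fell and 1 that rose in Cre-negative cells (median -0.29). The difference was higher for 11 and lower for 0 (1 at an unadjusted p under 0.05, 0 in DESeq2 and 0 in limma), with a median of 0.19. Hspa4l, of the Hsp110 family of nucleotide exchange factors (chromosome 3, 40744495 to 40796103), was at 479 and 487 CPM with ethanol against 567 and 572 CPM untreated in Cre-positive cells, and 413 and 403 CPM with ethanol against 823 and 817 CPM untreated in Cre-negative cells (log2 difference 0.77, SE 0.048, adjusted p = 1.82e-09). Both genotypes fell without overlap. Hsph1, another Hsp110 gene, differed by 0.48 (SE 0.051), the constitutive chaperone gene Hspa8 by 0.27 (SE 0.049) and Hsp90aa1 by 0.30 (SE 0.058). Dnajb1, an Hsp70 cochaperone, differed by 0.33 (SE 0.064), and Hsf1, which codes for the heat shock factor, did not pass (0.18, adjusted p = 0.22).

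**Figure D4:**
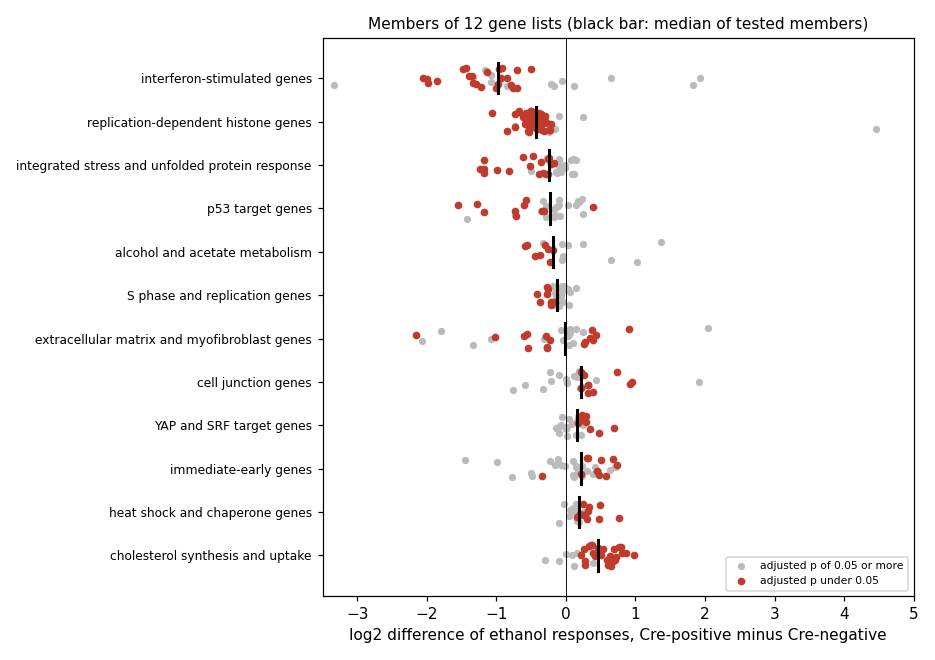
Log2 difference of the ethanol responses (x axis, Cre-positive minus Cre-negative) for the tested members of 12 gene lists (rows), in red where adjusted p was under 0.05, with a black bar at each median. Interferon-stimulated genes have the lowest median of these lists, -0.98, and cholesterol genes the highest, 0.45.

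Matrix and contractile genes gave both directions. Of 32 tested members, 7 differences were higher and 9 lower, with a median of -0.01. Postn, the matricellular protein periostin (chromosome 3, 54361109 to 54391037), was at 775 and 753 CPM with ethanol against 669 and 695 CPM untreated in Cre-positive cells, and 164 and 160.3 CPM with ethanol against 33.6 and 31.3 CPM untreated in Cre-negative cells (log2 difference -2.16, SE 0.069, adjusted p = 1.32e-14). It rose in both genotypes, from very different untreated levels, and the Cre-negative libraries stayed below every Cre-positive one. Col3a1, the chain of type III collagen, was at 810.0 and 766 CPM with ethanol against 632 and 646 CPM untreated in Cre-positive cells, and 402 and 391 CPM with ethanol against 160.3 and 156 CPM untreated in Cre-negative cells (log2 difference -1.02, SE 0.067, adjusted p = 3.03e-09). Tagln, the smooth muscle actin-binding protein transgelin, whose exons overlap Pcsk7 on the opposite strand, differed by -0.61 (SE 0.065), and Acta2, smooth muscle actin, by -0.27 (SE 0.052).

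The matrix genes with a higher difference included Col8a1, a collagen gene, which was at 191 and 206 CPM with ethanol against 130.0 and 122 CPM untreated in Cre-positive cells, and 112 and 105 CPM with ethanol against 126 and 134 CPM untreated in Cre-negative cells (log2 difference 0.91, SE 0.074, adjusted p = 5.05e-08). Its pairs separated in opposite directions. Col4a1, of basement membrane, differed by 0.39 (SE 0.058), and the type I collagen genes Col1a1 and Col1a2 did not pass (0.04 and 0.06). Among 22 metalloproteinase and inhibitor genes, 2 were higher and 3 lower (22.7% called, beside 16.3% of all genes), with 2 higher and 1 lower in DESeq2. Mmp19, a stromal metalloproteinase whose exons overlap Tmem198b on the opposite strand, was at 29.2 and 27.3 CPM with ethanol against 33.3 and 34.7 CPM untreated in Cre-positive cells, and 18.1 and 19.6 CPM with ethanol against 9.78 and 9.93 CPM untreated in Cre-negative cells (log2 difference -1.202, SE 0.10, adjusted p = 9.32e-08). Mmp13, a collagenase, was at 14.4 and 14.9 CPM with ethanol against 5.39 and 5.31 CPM untreated in Cre-positive cells, and 1.36 and 1.197 CPM with ethanol against 0.969 and 1.18 CPM untreated in Cre-negative cells (log2 difference 1.23, SE 0.25, adjusted p = 0.00166). Mmp19 pairs separated in opposite directions, and Mmp13 rose in Cre-positive cells. The Mmp13 call was lost without library 2 (Cre-negative untreated), at a log2 difference of 1.06 (adjusted p = 0.0603).

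Secreted regulators of Wnt and TGF-beta signalling held some of the large differences. Of 25 Wnt, Notch and Hedgehog genes, 4 were higher and 4 lower, and the counts were the same, 4 and 4, for 25 TGF-beta and BMP genes, of which DESeq2 called 2 lower. In each list 32.0% were called by edgeR, beside 16.3% of all genes. Dkk2, a secreted Wnt antagonist (chromosome 3, 132085292 to 132180304), was at 42.5 and 37.9 CPM with ethanol against 22.6 and 22.5 CPM untreated in Cre-positive cells, and 1.78 and 1.91 CPM with ethanol against 2.64 and 2.58 CPM untreated in Cre-negative cells (log2 difference 1.32, SE 0.20, adjusted p = 0.0001). Wisp2, a CCN-family secreted protein, was at 154 and 146 CPM with ethanol against 208 and 218 CPM untreated in Cre-positive cells, and 342 and 331 CPM with ethanol against 223 and 215 CPM untreated in Cre-negative cells (log2 difference -1.13, SE 0.058, adjusted p = 8.53e-11). In both genes the pairs separated in opposite directions without overlap, though the fall of Dkk2 in Cre-negative cells did not pass. Sfrp2, a soluble frizzled-related protein, rose in both genotypes, and its difference was -1.12 (SE 0.086).

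Receptors and ligands of low level moved by more. Lgr5, the R-spondin receptor, was at 2.51 and 3.12 CPM with ethanol against 4.09 and 4.57 CPM untreated in Cre-positive cells, and 1.28 and 1.68 CPM with ethanol against 0.308 and 0.466 CPM untreated in Cre-negative cells (log2 difference -2.51, SE 0.36, adjusted p = 7.06e-05), which for Cre-negative untreated cells rests on 7 and 13 counts. Inhbb, an activin subunit, was at 4.57 and 4.42 CPM with ethanol against 6.84 and 6.88 CPM untreated in Cre-positive cells, and 1.24 and 1.47 CPM with ethanol against 0.308 and 0.538 CPM untreated in Cre-negative cells (log2 difference -2.25, SE 0.31, adjusted p = 4.22e-05), on 7 and 15 counts in those libraries. Both were high in Cre-positive cells, where they fell, and low in Cre-negative cells, where they rose. The other activin subunit gene Inhba had a higher difference, 0.59 (SE 0.12), as did the BMP target Id2 (0.62, SE 0.079), the SMAD corepressor gene Skil (0.32, SE 0.060) and the Notch target Hey2 (1.12, SE 0.24).

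Some targets of YAP and SRF, which report on the actin cytoskeleton, had higher differences, and most did not pass. Of 23 tested members, 15 rose and 1 fell in Cre-positive cells, and 8 rose and 4 fell in Cre-negative cells. The difference was higher for 8 and lower for 0 (0 at an unadjusted p under 0.05, in DESeq2 and in limma), with a median of 0.16. Of the 23, 34.8% were called, beside 16.3% of all genes. DESeq2 called 6 higher. The count was 4 without library 10 (Cre-negative ethanol) and 4 without library 2 (Cre-negative untreated). Vcl, vinculin of focal adhesions, was at 738 and 799 CPM with ethanol against 655 and 662 CPM untreated in Cre-positive cells, and 353 and 334 CPM with ethanol against 397 and 419 CPM untreated in Cre-negative cells (log2 difference 0.47, SE 0.061, adjusted p = 1.94e-05). Its Cre-positive libraries rose and its Cre-negative ones fell. Ajuba, a LIM protein that restrains the Hippo kinases, differed by 0.34 (SE 0.060) and Actb, beta-actin, by 0.29 (SE 0.054). Exons of Vcl overlap Ap3m1 on the opposite strand.

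Immediate-early and inflammatory genes leaned to higher differences. Of 35 immediate-early genes, 21 rose in Cre-positive cells (median 0.32) and 10 rose and 4 fell in Cre-negative cells (median 0.14). In the difference 28.6% of them were called, beside 16.3% of all genes. The difference was higher for 9 and lower for 1 (7 and 0 in DESeq2), and the count of higher ones was 4 without library 10 (Cre-negative ethanol) and 5 without library 2 (Cre-negative untreated). Maff, a small MAF factor, was at 38.5 and 41.8 CPM with ethanol against 33.04 and 31.2 CPM untreated in Cre-positive cells, and 21.99 and 21.5 CPM with ethanol against 23.8 and 25.6 CPM untreated in Cre-negative cells (log2 difference 0.51, SE 0.10, adjusted p = 0.00102). Dusp1, a MAP kinase phosphatase gene, differed by 0.67 (SE 0.14), with pairs that moved in opposite directions, and Ier3 by 0.47 (SE 0.10). Exons of Dusp1 overlap Ergic1 on the opposite strand.

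Among 24 tested inflammatory genes, 6 were higher and 2 lower (33.3% called, beside 16.3% of all genes). Ccl2, the monocyte chemokine, was at 113 and 119.8 CPM with ethanol against 114 and 103 CPM untreated in Cre-positive cells, and 70.6 and 61.5 CPM with ethanol against 103 and 102 CPM untreated in Cre-negative cells (log2 difference 0.75, SE 0.078, adjusted p = 1.41e-06). Ptgs2, cyclooxygenase 2, was at 453 and 482 CPM with ethanol against 437 and 420.3 CPM untreated in Cre-positive cells, and 236 and 182 CPM with ethanol against 324 and 333 CPM untreated in Cre-negative cells (log2 difference 0.78, SE 0.10, adjusted p = 1.53e-05). Neither gene passed in Cre-positive cells, and the Cre-negative ethanol libraries were lowest for both. Ccl7, another chemokine, differed by 0.70 (SE 0.12), while Ptx3, a soluble pattern recognition protein, had a lower difference (-0.36, SE 0.057).

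Genes on a list of alcohol and acetate metabolism differed modestly. Of 25 listed genes of alcohol and acetate metabolism, 17 were tested. In Cre-positive cells 9 fell and 0 rose (0 at an unadjusted p under 0.05, in DESeq2 and in limma), and in Cre-negative cells 4 fell and 3 rose. The difference was lower for 8 and higher for 0 (1 at an unadjusted p under 0.05, 0 in DESeq2 and limma). Of the 17, 47.1% were called, beside 16.3% of all genes. DESeq2 called 4 lower, and its lower calls over all genes were 710, beside 1406 in edgeR. Fewer members were called lower without library 4 (Cre-positive ethanol) or library 10 (Cre-negative ethanol), and fewer of all genes were as well. Acss2, which makes acetyl-CoA from acetate and whose exons overlap Gss and Ggt7 on the opposite strand, was at 12.3 and 12.00 CPM with ethanol against 21.4 and 22.1 CPM untreated in Cre-positive cells, and 8.03 and 7.97 CPM with ethanol against 10.3 and 8.71 CPM untreated in Cre-negative cells (log2 difference -0.60, SE 0.14, adjusted p = 0.00516). Cre-positive libraries separated without overlap, and Cre-negative ones by less. Aldh9a1, an aldehyde dehydrogenase, was at 16.98 and 17.7 CPM with ethanol against 23.6 and 23.1 CPM untreated in Cre-positive cells, and 28.4 and 31.5 CPM with ethanol against 28.9 and 30.2 CPM untreated in Cre-negative cells (log2 difference -0.45, SE 0.10, adjusted p = 0.00337). Aldh1l2, whose exons overlap D10Wsu102e on the opposite strand, had the smallest p of the list (log2 difference -0.38, SE 0.067, adjusted p = 0.000569). Aldh2, the mitochondrial enzyme that clears acetaldehyde, did not pass (-0.05, adjusted p = 0.712). Whether the called members act on ethanol or its products in these cells was not tested.

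Of 37 hypoxia and glycolysis genes, 16 fell with ethanol in Cre-positive cells and 15 in Cre-negative cells (6.84% and 12% of all genes fell). The difference was higher for 2 and lower for 6 (21.6% called, beside 16.3% of all genes), with 2 higher and 3 lower in DESeq2. Ndrg1, a hypoxia- and stress-induced gene, was at 38.6 and 38.1 CPM with ethanol against 45.7 and 45.3 CPM untreated in Cre-positive cells, and 61.2 and 65.4 CPM with ethanol against 46.4 and 48.2 CPM untreated in Cre-negative cells (log2 difference -0.67, SE 0.075, adjusted p = 3.7e-06). Ddit4, an mTORC1 inhibitor, differed by -0.60 (SE 0.10) and Pdk1, which limits pyruvate entry into mitochondria, by -0.50 (SE 0.10), whereas Adm, adrenomedullin, was higher (0.47, SE 0.10). Of 31 targets of NRF2, 15 fell in Cre-positive cells, against 18 for Cre-negative cells, and the difference was higher for 4 (2 in DESeq2) and lower for 1, Slc7a11. That share, 16.1%, was near the 16.3% of all genes. Txnrd1, thioredoxin reductase, differed by 0.30 (SE 0.053).

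Cell junction genes had 10 higher and 0 lower differences among 26 tested (of the 0, 2 passed at an unadjusted p under 0.05, and 0 in DESeq2 and limma), with a median of 0.21. Of the 26, 38.5% were called, beside 16.3% of all genes. Cgn, the tight junction protein cingulin (chromosome 3, 94760069 to 94786492), was at 8.18 and 9.22 CPM with ethanol against 6.25 and 6.19 CPM untreated in Cre-positive cells, and 7.68 and 7.66 CPM with ethanol against 9.96 and 10.8 CPM untreated in Cre-negative cells (log2 difference 0.92, SE 0.16, adjusted p = 0.000389). Gjb2, the gap junction protein connexin 26, was at 51.9 and 64.1 CPM with ethanol against 27.4 and 24.3 CPM untreated in Cre-positive cells, and 24.4 and 25.2 CPM with ethanol against 18.6 and 18.4 CPM untreated in Cre-negative cells (log2 difference 0.74, SE 0.12, adjusted p = 0.000279). Cgn pairs separated in opposite directions, and Gjb2 rose in both genotypes, by more in Cre-positive cells. Tjp1, the scaffold protein ZO-1, differed by 0.39 (SE 0.058) and Pkp4, a plakophilin, by 0.31 (SE 0.059).

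Clock genes had 4 higher differences of 18 and 0 lower ones (1 at an unadjusted p under 0.05, 0 in DESeq2 and 1 in limma). Their share called was 22.2%, beside 16.3% of all genes. Bhlhe40, a repressor of the clock and a responder to hypoxia, was at 29.9 and 36.04 CPM with ethanol against 32.9 and 27.9 CPM untreated in Cre-positive cells, and 8.26 and 7.97 CPM with ethanol against 13.4 and 13.3 CPM untreated in Cre-negative cells (log2 difference 0.83, SE 0.14, adjusted p = 0.000389). Its Cre-positive pairs overlapped, and its Cre-negative ethanol libraries were below the untreated ones. Clock and Nr1d2 differed by 0.31 (SE 0.059) and 0.25 (SE 0.057). In the lysosome list 4 were higher and 4 lower of 31, or 25.8% beside 16.3% of all genes (2 lower in DESeq2). Neu1, a sialidase, was at 18.6 and 17.8 CPM with ethanol against 16.6 and 17.6 CPM untreated in Cre-positive cells, and 26.1 and 26.3 CPM with ethanol against 39.7 and 38.5 CPM untreated in Cre-negative cells (log2 difference 0.66, SE 0.093, adjusted p = 4.49e-05).

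Ribosomal protein genes had a smaller share called than the 16.3% of all genes. The shares of SOSS and Integrator genes, snoRNA host genes and imprinted genes were near it, on few genes each. Cytosolic ribosomal protein genes had 2 higher and 7 lower of 79 (11.4%), and 0 and 3 in DESeq2. SOSS and Integrator genes had 1 and 1 of 17 (11.8%), snoRNA host genes 1 and 1 of 13 (15.4%), and imprinted genes 1 and 1 of 14 (14.3%). In DESeq2 SOSS and Integrator genes had 0 lower, and snoRNA host genes had 0 in either direction. Hox genes had 0 of 18 (2 higher and 1 lower at an unadjusted p under 0.05, and 0 in DESeq2 and limma), but Hoxd8 passed with length offsets (log2 difference 0.32, adjusted p = 0.0457). The 13 mitochondrial genome genes had 0 by edgeR at either p, by DESeq2 and by limma. Glucocorticoid targets had 2 higher (1 in DESeq2) and 0 lower differences of 15, or 13.3% (2 lower at an unadjusted p under 0.05, 0 in DESeq2 and limma). The shares were above that of all genes for 2 small lists. RNA polymerase III transcripts had 2 higher (1 each in DESeq2 and limma) and 0 lower of 8 (25%). Nuclear long RNAs had 3 higher (2 in DESeq2) and 0 lower of 5 (60.0%). Both lists had 0 lower at an unadjusted p under 0.05, in DESeq2 and in limma. Neat1 lost its call in DESeq2 (log2 difference 0.63, DESeq2 adjusted p = 0.139). Without library 4 or 7 (Cre-positive) or 9 (Cre-negative) its log2 difference was 0.46, 0.49 or 0.44, and the call was lost too. Kcnq1ot1 lost its call with length offsets (log2 difference 0.09, adjusted p = 0.495). It was also lost without library 4 or 7 (Cre-positive, log2 difference 0.37 or 0.42) or library 10 or 2 (Cre-negative, 0.42 or 0.30). Of 11 RNA polymerase II small RNAs, Rnu12 (U12, part of the minor spliceosome) was higher, at 38.1 and 37.9 CPM with ethanol against 24.9 and 30.9 CPM untreated in Cre-positive cells, and 33.5 and 34.9 CPM with ethanol against 37.3 and 40.1 CPM untreated in Cre-negative cells (log2 difference 0.64, SE 0.11, adjusted p = 0.000336). Malat1, a nuclear long RNA, was at 3999 and 4653 CPM with ethanol against 3498 and 3889 CPM untreated in Cre-positive cells, and 2457 and 2576 CPM with ethanol against 2789.8 and 2928 CPM untreated in Cre-negative cells (log2 difference 0.41, SE 0.083, adjusted p = 0.00168). Its Cre-positive pair went up and its Cre-negative pair down, except that 1 Cre-positive ethanol library lay only slightly above the untreated ones.

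The single genes with the largest differences were mostly of low level. Phex, an X-linked endopeptidase gene of phosphate control (chromosome X, 157162075 to 157415312), was at 1.14 and 1.106 CPM with ethanol against 1.22 and 0.983 CPM untreated in Cre-positive cells, and 1.51 and 1.06 CPM with ethanol against 4.98 and 5.38 CPM untreated in Cre-negative cells (log2 difference 2.04, SE 0.33, adjusted p = 0.000224). Its Cre-negative untreated libraries stood apart from all others. Lrrtm3, a synaptic adhesion gene, was at 1.77 and 2.55 CPM with ethanol against 0.708 and 0.639 CPM untreated in Cre-positive cells, and 7.602 and 8.14 CPM with ethanol against 6.697 and 7.53 CPM untreated in Cre-negative cells (log2 difference 1.53, SE 0.32, adjusted p = 0.00225). Hmgn5, an X-linked nucleosome-binding protein gene, differed by 1.30 (SE 0.27), and S100a11, a calcium-binding protein gene, by 1.16 (SE 0.23). Epas1, which codes for the hypoxia factor HIF-2alpha, was at 7.0 and 8.51 CPM with ethanol against 5.900 and 5.55 CPM untreated in Cre-positive cells, and 0.194 and 0.342 CPM with ethanol against 0.441 and 0.681 CPM untreated in Cre-negative cells (log2 difference 1.497, SE 0.46, adjusted p = 0.0304); its call was lost without library 4 (Cre-positive ethanol, log2 difference 1.34, adjusted p = 0.0584) or library 8 (Cre-positive untreated, 1.45, adjusted p = 0.0542). It was also lost without library 9 (Cre-negative ethanol, 1.16, adjusted p = 0.155) or library 2 (Cre-negative untreated, 1.12, adjusted p = 0.284).

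In the lower direction, Malrd1 (chromosome 2, 15526479 to 16255555) was at 3.83 and 4.53 CPM with ethanol against 2.52 and 2.900 CPM untreated in Cre-positive cells, and 11.6 and 10.5 CPM with ethanol against 1.59 and 1.36 CPM untreated in Cre-negative cells (log2 difference -2.27, SE 0.23, adjusted p = 9.02e-07). Irgm2, an interferon-inducible GTPase gene whose exons overlap Igtp on the same strand, was at 2.95 and 3.15 CPM with ethanol against 1.49 and 2.06 CPM untreated in Cre-positive cells, and 3.995 and 4.82 CPM with ethanol against 0.352 and 0.502 CPM untreated in Cre-negative cells (log2 difference -2.54, SE 0.34, adjusted p = 3.29e-05). Cxcl15, a chemokine gene best known from lung, was at 5.93 and 4.22 CPM with ethanol against 3.11 and 2.95 CPM untreated in Cre-positive cells, and 6.52 and 6.12 CPM with ethanol against 0.969 and 0.896 CPM untreated in Cre-negative cells (log2 difference -2.02, SE 0.28, adjusted p = 3.7e-05). All 3 rose in both genotypes and rose more in Cre-negative cells. Slc1a6, a glutamate transporter gene, and Pcp4l1 had the lowest fitted differences, but these rest on 3 and 3 counts with ethanol against 8 and 9 untreated for Slc1a6, and 1 and 1 against 5 and 2 for Pcp4l1, in Cre-positive cells. The Pcp4l1 call was lost without library 4 (Cre-positive ethanol, -3.24, adjusted p = 0.0616) or library 7 (Cre-positive untreated, -2.70, adjusted p = 0.255). In Cre-negative cells, where both are well measured, Slc1a6 was at 9.77 and 8.65 CPM with ethanol against 3.26 and 2.65 CPM untreated and Pcp4l1 at 15.9 and 16.9 CPM with ethanol against 6.12 and 7.03 CPM untreated.

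Opposite responses that passed in both genotypes were seen in 263 genes, 153 and 110 as given above. Zfp574, a zinc finger gene (chromosome 7, 25072567 to 25083492), was at 184 and 159.9 CPM with ethanol against 379.9 and 291 CPM untreated in Cre-positive cells, and 358 and 342 CPM with ethanol against 226 and 217 CPM untreated in Cre-negative cells (log2 difference -1.63, SE 0.12, adjusted p = 1e-08). The Cre-positive untreated libraries spread most, and no pair overlapped. Sema3c, a secreted semaphorin, was at 200.3 and 209 CPM with ethanol against 161 and 152 CPM untreated in Cre-positive cells, and 66.2 and 65.3 CPM with ethanol against 83.8 and 91.7 CPM untreated in Cre-negative cells (log2 difference 0.81, SE 0.074, adjusted p = 2.33e-07). Peak1, a pseudokinase of the cytoskeleton, was at 96.04 and 123 CPM with ethanol against 78.00 and 82.8 CPM untreated in Cre-positive cells, and 38.5 and 32.2 CPM with ethanol against 42.2 and 53.6 CPM untreated in Cre-negative cells (log2 difference 0.90, SE 0.16, adjusted p = 0.000465). Both rose in Cre-positive and fell in Cre-negative cells. Adamts8, a secreted protease, was at 3.35 and 1.98 CPM with ethanol against 6.96 and 5.36 CPM untreated in Cre-positive cells, and 5.197 and 7.42 CPM with ethanol against 4.01 and 3.44 CPM untreated in Cre-negative cells (log2 difference -2.01, SE 0.29, adjusted p = 6.42e-05). Pou6f1, a POU factor gene, differed by -2.12 (SE 0.32), Akap12, a kinase anchor, by 0.87 (SE 0.16) and Zfpm2, a GATA cofactor, by 0.76 (SE 0.16).

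Called genes were unevenly spread over gene length and level. With the genes split into 4 equal bins by exonic length, in the longest bin 17.6% were called higher and 7.78% lower, while in the shortest bin 2.63% were higher and 4.38% lower, and in the second 4.98% and 9.19%. Among genes with an average log2 CPM of at least 1, in the longest bin the median difference was 0.06, and it was -0.02, -0.05 and -0.03 in the shorter ones. In the highest of 4 bins by average level 21.9% were called higher and 9.68% lower, and in the bin next to it 7.68% and 12.1%. With offsets that remove the trend over length in each library, an alternative chosen after the data were seen, the longest bin had 535 higher and 459 lower calls among 3722 genes with an average log2 CPM of at least 1, against 737 higher and 319 lower without offsets in the same genes. In all, 2913 genes were called with offsets. On the X chromosome 11.4% of 641 genes were called higher and 4.37% lower.

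**Figure D5:**
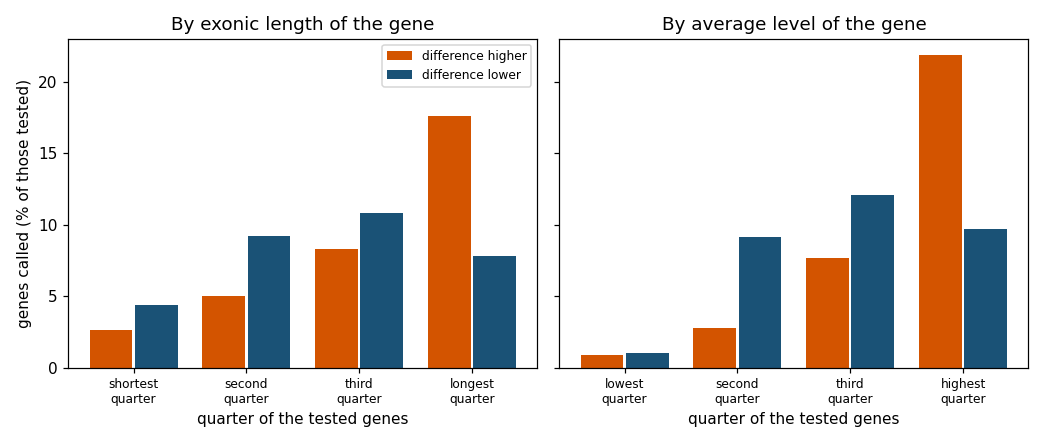
Share of tested genes called in the difference (y axis, %) in 4 equal bins of exonic length (left) and of average level (right), higher in orange and lower in blue. Higher calls reach 17.6% in the longest bin and 21.9% in the highest one, while lower calls peak in the bin next to it, at 10.8% and 12.1%.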

How the data were processed

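Ribosome-depleted total RNA was sequenced in read pairs from 12 libraries of immortalised fibroblasts. The authors deposited 1 table of expected counts, all whole, with a line for each gene symbol. Per the submitters' processing notes, the tools were cutadapt 1.11, STAR 2.5.2a, RSEM 1.2.30 and edgeR, with GRCm38; the sources used here state neither the annotation nor the strand setting.

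Groups were taken from the labels. The 2 libraries of each group differed by more than sampling noise (chi-square per degree of freedom 2.52 to 5.03), so none was treated as a copy. Models were run in edgeR 4.0.16 under R 4.3.3: filterByExpr kept 17609 genes, libraries were scaled by TMM, and quasi-likelihood models with 1 mean for each of 6 groups were fitted to all 12 libraries (common dispersion 0.00119, 6 residual and 14.6 prior degrees of freedom). F tests of the difference and of each response were 2-sided, with p-values adjusted by Benjamini-Hochberg across the 17609 genes and called under 0.05. SEs come from the F statistic. The fit was tested on simulated data.

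The members, the 31 gene lists and the 7 marker lists were chosen with earlier results of these data known. Genes were named by a rule: the 2 targets; the 12 largest called differences per direction with average log2 CPM of at least 1, with all 4 ethanol-minus-untreated differences of one genotype beyond all 4 of the other, and no predicted-gene symbol; 6 per direction whose responses passed in opposite directions; and up to 4 called members per list by p, or the smallest p where none passed. Genes named in the text outside that rule, such as Ifit1, Usp18, Stat2, Hmgcs1, Ddit3, Asns, Dnajb1, Cdkn1a and Col4a1, were chosen after their values were seen. Non-overlap in all 4 differences held for 19.8% of tested genes above and 21.3% below. Coordinates are GRCm38 from GENCODE M21, promoters RefSeq, GRCm38.p6.

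Alternatives were RLE size factors, DESeq2 1.42.0, limma 3.58.1 on log2 CPM, no filter, only the 8 libraries, leaving out each library, and, added later, length offsets and the counts within lists. Of these 8 libraries the shallowest (20201855 counts) limits the precision for low genes.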

Additional observations from a re-analysis of the deposited data

Results flagged for a closer look

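The genes here were picked out because their ethanol responses passed in both genotypes with opposite signs and their difference passed the test of the difference itself, by edgeR's quasi-likelihood test with Benjamini-Hochberg adjustment. There were 263 such genes, of which 32 fall under the naming rule. Values are log2 differences, Cre-positive minus Cre-negative.

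Of those that rose in Cre-positive and fell in Cre-negative cells, Pgbd5, a transposase-derived gene, stood at 1.15, Cgn at 0.92, Col8a1 at 0.91, Peak1 at 0.90, Akap12 at 0.87, Sema3c at 0.81, Adgrg2 at 0.80 and Zfpm2 at 0.76. Smaller ones were Dusp1 at 0.67, Vcl at 0.47, Malat1 at 0.41, Tjp1 at 0.39, Skil at 0.32, Pkp4 at 0.31 and Clock at 0.31. They include junction, adhesion and secreted proteins. The naming rule took members from each gene list, so these kinds partly reflect the lists and do not describe all genes with opposite responses.

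Of those that fell in Cre-positive and rose in Cre-negative cells, Lgr5 stood at -2.51, Inhbb at -2.25, Pou6f1 at -2.12, Adamts8 at -2.01, Lctl at -1.63, Zfp574 at -1.63, Mmp19 at -1.202, Slc7a11 at -1.18, Wisp2 at -1.13 and Pck2 at -0.998. Smaller ones were Phlda3 at -0.72, Ndrg1 at -0.67, Ccng1 at -0.60, Hist1h2bh at -0.57, Pold1 at -0.38, Sqstm1, an autophagy receptor, at -0.32 and Tk1, thymidine kinase, at -0.28. They include targets of ATF4 and p53 and genes of DNA synthesis. Here too the naming rule drew on lists of such genes. Whether these kinds are common among all genes with opposite responses was not tested.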

How the results depend on the processing

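No paired analysis was made because the labels do not say which libraries of different groups, if any, share a culture or batch. Of 124 named genes called, 97 kept the call under all 14 alternatives and 27 lost it under at least 1. DESeq2 called 1728 genes (710 lower), of which 1722 were shared with the 2871, all in the same direction; in Cre-positive cells it called 1653 (595 lower) and in Cre-negative cells 2875 (1390 lower). The share of higher calls was 51.0%, 58.9% with DESeq2 and 55.3% without a filter. For alcohol and acetate metabolism, 8 lower differences became 4 with DESeq2 and 5 without a filter. Lower calls over all genes went from 1406 to 710 and to 1186 in the same settings. Leaving out 1 library at a time, the difference called 1792 to 3077 genes (858 to 1557 higher, 913 to 1520 lower). Cre-positive cells had 1423 to 2619 calls (834 to 1439 higher, 561 to 1180 lower), with 1425 without library 7 and 1521 without library 8, and Cre-negative cells had 2759 to 4531 (1237 to 2232 lower). Within lists, YAP and SRF targets had 4 to 9 higher, immediate-early genes 4 to 12, and alcohol and acetate metabolism 5 to 8 lower; interferon-stimulated genes had 17 to 24 lower, cholesterol genes 23 to 25 higher and histone genes 45 to 48 lower. The near-zero differences changed sign: Nabp1 ranged over -0.071 to 0.064 when 1 library was left out, below 0 without libraries 1, 4, 8 or 10, and was -0.046 with length offsets, and Nabp2 ranged over -0.093 to 0.097, below 0 without libraries 1, 4, 8 or 9. The cause of these changes was not tested. With 2 libraries a group and a median SE of 0.137 for the difference, small changes in genes of few counts were not detectable.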

Other observations

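The 4 libraries given 4-OHT belong to neither ethanol response, and their levels stand here beside the ethanol and untreated ones for genes that turned on the difference. In Cre-negative cells, whose floxed genes should not recombine, Irf9 was at 63.4 and 64.1 CPM with 4-OHT, beside 58.8 and 58.5 CPM with ethanol and 19.7 and 18.2 CPM untreated. Ddx58 was at 101 and 100.2 CPM with 4-OHT, above 79.98 and 80.97 CPM with ethanol and 34.3 and 33.8 CPM untreated. Hsd17b7, the sterol enzyme, was at 36.4 and 37.2 CPM, beside 35.5 and 35.7 CPM with ethanol and 72.9 and 70.3 CPM untreated. Postn was at 168 and 171 CPM, beside 164 and 160.3 CPM with ethanol and 33.6 and 31.3 CPM untreated. In these genes the Cre-negative 4-OHT libraries lay far from the untreated ones, on the side of ethanol. Zfp574 was not so, at 199 and 221 CPM with 4-OHT, beside 358 and 342 CPM with ethanol and 226 and 217 CPM untreated. Ccl2 was at 106.5 and 105 CPM with 4-OHT, beside 70.6 and 61.5 CPM with ethanol and 103 and 102 CPM untreated. S100a11 was at 12.1 and 8.72 CPM, beside 5.59 and 6.09 CPM with ethanol and 9.61 and 11.1 CPM untreated. For Zfp574, Ccl2 and S100a11 the 4-OHT libraries lay nearer to the untreated ones. How many named genes lie on each side was not counted.

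In Cre-positive cells, Gjb2 was at 28.5 and 28.2 CPM with 4-OHT, beside 51.9 and 64.1 CPM with ethanol and 27.4 and 24.3 CPM untreated. Zfp574 was at 324 and 337 CPM with 4-OHT, beside 184 and 159.9 CPM with ethanol and 379.9 and 291 CPM untreated. For both genes the ethanol libraries stood apart from the other 2 groups. Xaf1 was at 8.21 and 8.69 CPM with 4-OHT, beside 2.47 and 2.55 CPM with ethanol and 0.905 and 1.23 CPM untreated. These are values with no test.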
